A study of Rattus norvegicus with 6 samples.

Results

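Sirtuins and the enzymes that make NAD were examined in pancreatic islets of young adult and older rats. The group was defined by name as 9 genes, 6 sirtuins (*Sirt2*, *Sirt3*, *Sirt4*, *Sirt5*, *Sirt6* and *Sirt7*) and 3 NAD synthesis enzymes (*Nampt*, *Nmnat1* and *Nmnat3*), and a gene was measured where a probe's RefSeq transcript matched its symbol. Of these 9 genes, 7 had a matched probe, out of 13903 genes matched on the arrays: 5 sirtuins, *Nampt* and *Nmnat1*. *Sirt2* and *Nmnat3* had no matched probe and were not analysed here. Each of the 7 genes was read by a single probe on a single spot per array.

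The samples were total RNA from islets of male Wistar rats, 3 arrays from 12-month-old and 3 from 3-month-old animals. Islets, the hormone-secreting cell clusters of the pancreas, were freed from the surrounding tissue by collagenase digestion, and each array held RNA labelled with Cy3 alone. No treatment or genetic change is given for either age. Nothing in the labels says whether the RNA of 1 array came from 1 rat or from a pool. The study's array lists give 3 rats of each age, which would allow 1 rat for each array. The p-values measure the spread between these arrays. Because whole islets were used, fewer cells of a type and less RNA per cell cannot be told apart.

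NAD is a coenzyme that carries electrons in metabolism and is also split by enzymes that use it as a substrate. Sirtuins are such enzymes: they remove acyl groups, acetyl groups among them, from lysines of proteins and release nicotinamide. NAMPT, the rate-limiting enzyme of the salvage pathway, turns nicotinamide into nicotinamide mononucleotide, and the NMNAT enzymes turn that into NAD. In beta cells this pathway is known for its link to glucose-stimulated insulin secretion.

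Promoter sequence was matched by symbol for 7 of the 9 genes, *Sirt2* and *Nmnat3* included and *Nampt* and *Sirt6* not, in RefSeq promoters of assembly GRCr8 that run from 250 bases before to 50 bases after the transcript start. The sequences of *Sirt3* and *Nmnat1* are shown because these were the genes whose signal was lower on every 12-month array than on every 3-month array. They are written 5′ to 3′ on the gene's strand. Capitals mark each GC box, GGGCGG or its reverse complement, and each ETS core, CTTCCGG or its reverse complement.
*Sirt3*, chr1:205393552-205393851, minus strand: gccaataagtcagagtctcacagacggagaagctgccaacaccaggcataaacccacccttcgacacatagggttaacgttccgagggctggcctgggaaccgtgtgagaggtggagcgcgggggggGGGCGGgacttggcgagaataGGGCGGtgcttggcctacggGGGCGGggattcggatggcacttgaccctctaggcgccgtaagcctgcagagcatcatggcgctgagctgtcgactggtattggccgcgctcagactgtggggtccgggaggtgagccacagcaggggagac
*Nmnat1*, chr5:165211164-165211463, minus strand: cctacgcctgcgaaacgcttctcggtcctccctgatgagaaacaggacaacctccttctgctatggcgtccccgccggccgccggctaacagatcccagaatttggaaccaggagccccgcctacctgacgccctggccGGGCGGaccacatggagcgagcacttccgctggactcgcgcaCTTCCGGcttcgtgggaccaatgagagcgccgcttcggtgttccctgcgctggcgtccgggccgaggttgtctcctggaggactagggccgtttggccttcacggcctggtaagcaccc
The *Sirt3* window held 3 GC boxes and no ETS core, with 20 CpG dinucleotides and a GC content of 63.3%. The *Nmnat1* window held 1 GC box and 1 ETS core, with 28 CpG dinucleotides and a GC content of 65.3%. Of all 33469 promoters in the table, 33.1% held a GC box and 8.75% an ETS core on either strand. The median promoter had 7 CpG dinucleotides and a GC content of 51.7%. The 7 promoters of the group had 19 to 28 CpG dinucleotides, and 25.7% of all promoters had at least 19. These matches describe letters in a window and say nothing of a factor's binding.

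The arrays of the 2 ages differed in ways that touch every value below. Probes well above background made up 59.5% to 64.2% of each 12-month array and 73.0% to 77.4% of each 3-month array, and negative control spots had a median of 89.5 to 91 scanner units at 12 months and 29.5 to 31 at 3 months. The 6 arrays were read in 2 scans of 3 arrays, and neither scan held both ages, so the effect of the scan cannot be told apart from that of age. Of the 7 genes 6 were well above background on all arrays, and *Sirt6* on all but 12-month replicate 2.

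Of the NAD synthesis enzymes, *Nampt* had the larger signal at 12 months. Its quantile-normalized log2 signal was 10.42, 10.74 and 10.57 on the 12-month arrays and 9.15, 9.37 and 7.21 on the 3-month arrays. Every 12-month array stood above every 3-month array, and 3-month replicate 3 stood far below the rest. The means were 10.58 ± 0.16 at 12 months and 8.58 ± 1.19 at 3 months (SD, n = 3). The difference was 2.00 on the log2 scale (limma SE 0.57, 95% interval 0.65 to 3.36), which is a 4.01-fold higher signal at 12 months (1.56 to 10.3). It had an unadjusted limma p of 0.0103 and missed the threshold after adjustment over all tested probes (adjusted p = 0.0728). An exact permutation test, two-sided, gave 0.1, the smallest p that 3 arrays against 3 allow. Of all tested probes, 3.83% had a larger difference towards 12 months.

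The size of the *Nampt* difference rested partly on 1 array. Without 3-month replicate 3 it was 1.32 (limma adjusted p = 0.0644), and leaving out any other array gave 1.92 to 2.40. With normexp background correction the difference was 1.84 and passed the threshold (limma adjusted p = 0.0496), and with an intensity trend in the variance it was just under it (limma adjusted p = 0.04996). Marker sums of several cell types, endocrine cells among them, were apart between the ages on the same arrays. The summed log2 signal of 4 stellate and mesenchymal markers was 14.5 to 15.9 at 12 months and 13.2 to 14.0 at 3 months, and that of 3 endothelial markers 10.9 to 11.6 against 11.9 to 12.4. The endothelial markers did not move together. *Tek*, the brightest, and *Cdh5* were lower on every 12-month array (-1.14 and -2.11), whereas *Pecam1* was higher on every 12-month array (1.23). The sums of beta cell markers, 20.01 to 20.19 against 19.7 to 19.9, and of alpha cell markers, 18.13 to 18.36 against 18.05 to 18.07, were apart with the higher values at 12 months, as was *Ppy*, the marker of pancreatic polypeptide cells, at 18.3 to 18.4 against 17.8 to 17.99. Within the beta cell list the insulin genes *Ins1* and *Ins2* overlapped between the ages. The 5 nerve and Schwann markers tested were lower on every 12-month array than on each 3-month array with a value, and *Sox10* had no value on 3-month replicate 1. The part of these cells in the *Nampt* result was not tested.

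*Nmnat1*, the nuclear enzyme of the step after NAMPT, lay the other way. Its log2 signal was 8.12, 8.44 and 8.36 on the 12-month arrays and 9.19, 8.53 and 8.94 on the 3-month arrays. The ages did not overlap, although 12-month replicate 2 and 3-month replicate 2 lay close together. The means were 8.30 ± 0.17 at 12 months and 8.89 ± 0.33 at 3 months (SD, n = 3), and the difference was -0.58 (limma SE 0.26, 95% interval -1.21 to 0.044, adjusted p = 0.176). The exact permutation p was 0.1, two-sided. A more negative difference was seen in 29.9% of all tested probes. In all 15 alternative settings run, the difference was negative, between -0.76 and -0.43, and in none did it pass the threshold.

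**Figure D1:**
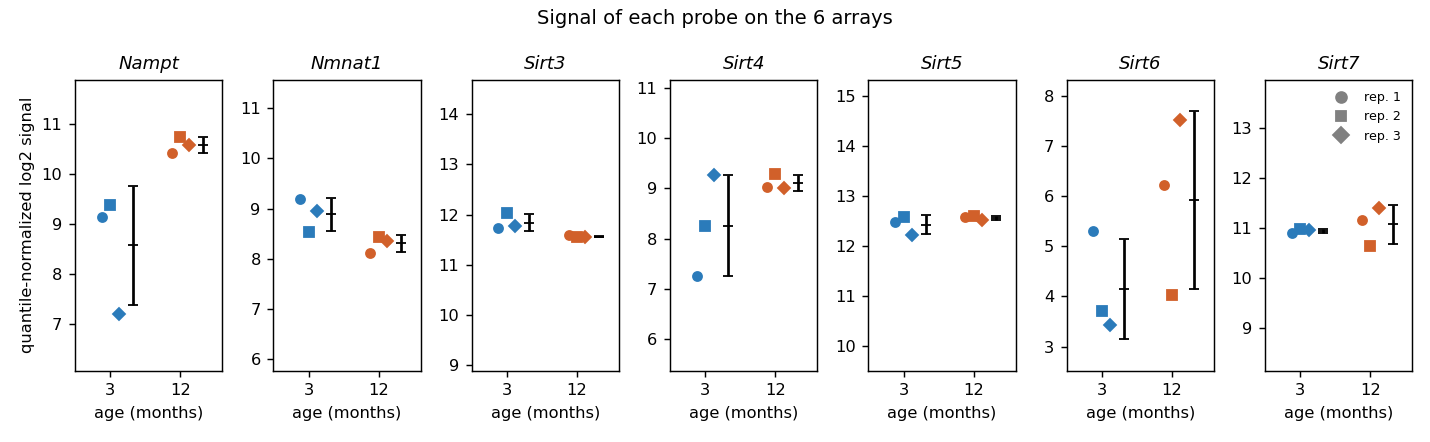
Quantile-normalized log2 signal (y axis) of each of the 7 genes at 3 and 12 months of age (x axis), 1 point per array with the marker giving the replicate, and black bars for the mean ± SD of 3 arrays; all panels span the same number of log2 units around their own midpoint. The *Nampt* points at 12 months lie at 10.42 to 10.74, above all 3-month points (7.21 to 9.37), whereas the *Sirt5* and *Sirt7* points of the ages interleave.

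Among the mitochondrial sirtuins, *Sirt3* was slightly lower at 12 months on every array, *Sirt4* was higher on average with overlapping arrays, and *Sirt5* lay at nearly the same signal at both ages. None of the 3 passed the test.

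*Sirt3* encodes the main deacetylase of the mitochondrial matrix. Its log2 signal was 11.58, 11.56 and 11.55 at 12 months and 11.73, 12.03 and 11.77 at 3 months. The 12-month arrays lay within a narrow band just under the lowest 3-month array. The difference of the means, 11.56 ± 0.019 against 11.84 ± 0.17 (SD, n = 3), was -0.28 (limma SE 0.22, 95% interval -0.80 to 0.24, adjusted p = 0.402), with an exact permutation p of 0.1. It was negative in all 15 alternatives, between -0.43 and -0.18. A more negative difference was seen in 44.8% of all tested probes.

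*Sirt4* encodes a mitochondrial sirtuin known for ADP-ribosylating glutamate dehydrogenase and for restraining insulin secretion in beta cells. Its log2 signal was 9.02, 9.28 and 9.001 at 12 months and 7.25, 8.26 and 9.26 at 3 months. The 12-month arrays were close to each other, whereas the 3-month arrays covered a wide range that reached the level of the 12-month arrays. The means were 9.10 ± 0.16 and 8.26 ± 1.01 (SD, n = 3), and the difference was 0.85 (limma SE 0.50, 95% interval -0.33 to 2.02, adjusted p = 0.271), and the exact permutation p was 0.3. The difference was 0.34 without 3-month replicate 1 and 1.35 without 3-month replicate 3. Glutamate dehydrogenase itself (*Glud1*), named here after its values were seen, had log2 means of 12.97 ± 0.18 at 12 months and 12.42 ± 0.24 at 3 months (SD, n = 3), and differed by 0.55 with a limma SE of 0.25 (adjusted p = 0.169).

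*Sirt5* encodes the mitochondrial enzyme that removes succinyl, malonyl and glutaryl groups. Its log2 signal was 12.59, 12.59 and 12.52 at 12 months and 12.48, 12.59 and 12.21 at 3 months, and the ages overlapped. The difference was 0.14 (limma SE 0.22, 95% interval -0.39 to 0.67, adjusted p = 0.678), and the exact permutation p was 0.2. With each array shifted to a common 75th percentile in place of quantile normalization the difference was -0.099, so that its sign depended on the scaling. A difference of 1 log2 unit in either direction lay outside this interval, and also outside those of *Sirt3* and *Sirt7*. These intervals cover the spread between arrays and not an effect of the scan.

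The nuclear sirtuins *Sirt6* and *Sirt7* differed in how well they were measured. *Sirt6*, which encodes a chromatin deacetylase known for genome maintenance and for repressing glycolytic genes, was dim: 13.6% of the kept probes were dimmer. Its background-subtracted signal, before normalization between arrays, was 131, 20.2 and 182 scanner units on the 12-month arrays and 19.7, 12.9 and 12.8 on the 3-month arrays. Such units differed between arrays of 1 age in bright genes too, as for *Sirt5* at 1633, 6356 and 6176 on the 3-month arrays. On the normalized log2 scale the *Sirt6* signal was 6.22, 4.02 and 7.52 at 12 months and 5.30, 3.72 and 3.44 at 3 months. The first and the third 12-month array stood above all others, and the 12-month array that was not well above background lay among the 3-month arrays.

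The *Sirt6* means were 5.92 ± 1.77 at 12 months and 4.15 ± 1.00 at 3 months (SD, n = 3), and the difference was 1.77 (limma SE 0.92, 95% interval -0.43 to 3.97, adjusted p = 0.225), with an exact permutation p of 0.2. Without 12-month replicate 2 the difference was 2.72 (limma adjusted p = 0.0526), without 12-month replicate 3 it was 0.97, and with normexp, whose offset compresses dim differences, it was 0.75. The summed log2 signal of 7 acinar markers was 20.96, 20.36 and 21.05 at 12 months and 20.88, 20.88 and 20.31 at 3 months, lowest on 12-month replicate 2 and 3-month replicate 3, each of which also had the lowest *Sirt6* signal of its age. The part of exocrine tissue in the *Sirt6* signal was not tested.

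*Sirt7*, the sirtuin of the nucleolus, had a log2 signal of 11.17, 10.65 and 11.41 at 12 months and 10.90, 10.98 and 10.96 at 3 months. The 3-month arrays lay together, and the 12-month arrays fell on both sides of them. The means were 11.08 ± 0.39 and 10.95 ± 0.041 (SD, n = 3), and the difference was 0.13 (limma SE 0.27, 95% interval -0.51 to 0.77, adjusted p = 0.757), and the exact permutation p was 0.7. The sign turned without 12-month replicate 3, at -0.036, and in 2 other settings.

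**Figure D2:**
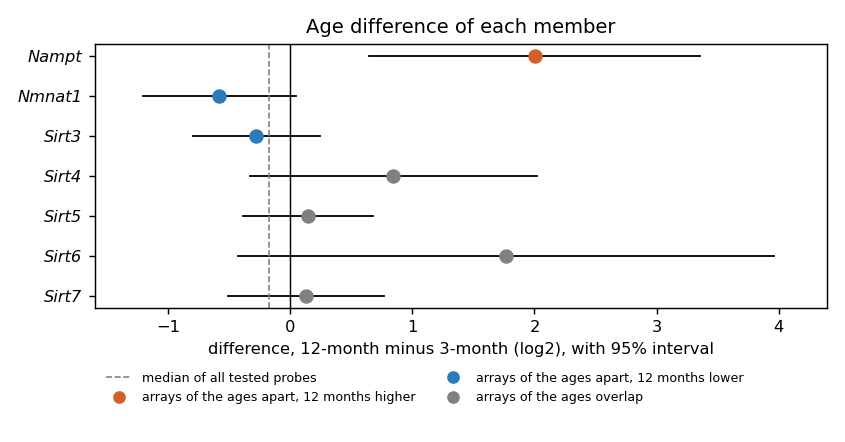
Difference of 12-month minus 3-month log2 signal (x axis) for each gene (y axis), with the 95% interval of the limma fit as a line; colour shows whether the arrays of the ages were apart. Only the *Nampt* interval, 0.65 to 3.36, lies wholly on 1 side of 0, and the dashed line is the median difference of all tested probes, -0.17.

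Across the group, 0 of 7 genes passed an adjusted p of 0.05 in limma, where 8.37% of the 17941 tested probes did. By the methods' t-test, unpaired, with the same adjustment the count was also 0, and at an unadjusted limma p under 0.05 it was 1, *Nampt*. The study's cutoff was more than 2-fold together with an unadjusted p below 0.05, with the p of a paired test in its array lists. The paired test was not run here, and with the limma p at that cutoff 1 of 7 genes was called, higher at 12 months, while 10.1% of probes were called higher and 11.9% lower. The arrays of the ages did not overlap for 1 gene with the higher signal at 12 months, *Nampt*, against 16.5% of probes, and for 2 genes with the lower signal, *Nmnat1* and *Sirt3*, against 22.8% of probes. The other 4 genes overlapped. No test of the group as a whole was made. The median difference was 0.14 over the 7 genes and -0.17 over all tested probes, and the latter was -0.40 under the 75th percentile shift.

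**Figure D3:**
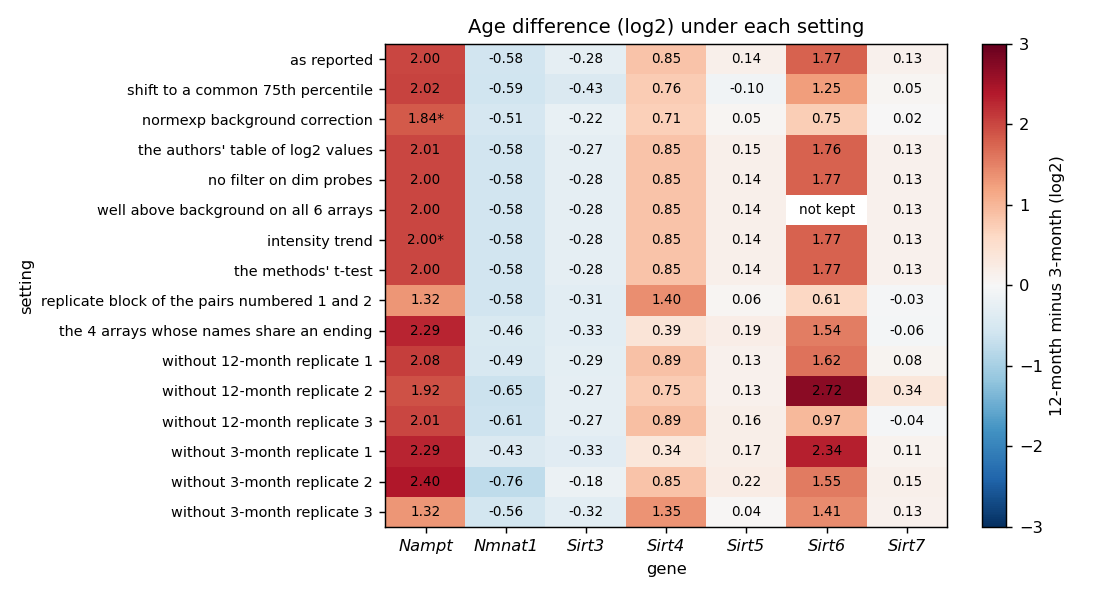
Difference of 12-month minus 3-month log2 signal for each gene (x axis) under each processing setting (y axis), with the value printed in the cell, colour from blue (lower at 12 months) to red (higher), and an asterisk where the limma adjusted p was under 0.05. *Nampt* is positive in every setting, between 1.32 and 2.40, *Nmnat1* and *Sirt3* are negative in every setting, and *Sirt5* and *Sirt7* hold both signs; *Sirt6* was not kept where all 6 arrays had to be above background.

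The genes that surround the sirtuins in NAD metabolism were read from the same fit. Over 6 lists of 83 genes, 69 had a probe and 65 were tested, of which 5 were called higher and 1 lower at an adjusted p under 0.05 in limma. These 6 are 9.23% of the tested genes, near the 8.37% of all tested probes. The arrays of the ages were apart for 14 of them with the higher signal at 12 months (21.5%, against 16.5% of all probes) and for 12 with the lower (18.5%, against 22.8%). No list was tested as a whole, and the medians below include fitted values of genes near background.

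In NAD synthesis outside the group, 11 of 15 genes were tested, and 1 was called lower. *Kynu*, kynureninase of the route from tryptophan, had a log2 signal of 2.31, 2.51 and 2.73 at 12 months and 4.37, 3.97 and 4.53 at 3 months. It was well above background on all 3-month arrays and on none at 12 months (limma adjusted p = 0.0156, and 0.255 with normexp). Its 3-month mean was no higher than the lowest signals marked well above background on the 12-month arrays. A signal at the 3-month level could thus also have gone unmarked at 12 months, so only the direction of the fitted difference is given. Of the 11 genes 8 had a negative difference and 3 a positive one, with a median of -0.27. A further 3 genes of NAD synthesis, named after their values were seen, came near the threshold without passing it. *Ido1*, indoleamine dioxygenase of the same route, had 3.61, 3.92 and 2.13 at 12 months and 5.03, 4.70 and 5.62 at 3 months (limma adjusted p = 0.0658), and was also well above background on none of the 12-month arrays. In the other direction, *Qprt*, which encodes the enzyme that forms nicotinic acid mononucleotide from quinolinate, differed by 1.70 (limma SE 0.49, adjusted p = 0.0734), and *Nadsyn1*, NAD synthetase, by 1.23 (limma SE 0.37, adjusted p = 0.0819).

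Other enzymes that consume or modify NAD had no call among those tested. *Cd38*, named after its values were seen, was not tested, being well above background on 1 of the 12-month arrays and 0 of the 3-month arrays. Of 15 PARP family members and NAD glycohydrolases 9 were tested, none was called in limma at an adjusted p under 0.05, 1 had an unadjusted p under 0.05, and their median difference was -0.21. That gene was *Sarm1*, an NAD hydrolase known for axon degeneration, named after its values were seen, with a difference of -0.92 (limma SE 0.27, adjusted p = 0.0802). Markers of nerve and Schwann cells were lower at 12 months on the same arrays, 5 of 5 tested with the ages apart and 2 of them called (*Prph*, and *Sox10* in a fit without its missing 3-month array), and their part in the *Sarm1* values was not tested. Of 8 genes for NAD phosphorylation, hydride transfer, transport and nicotinamide methylation 7 were tested, none was called, none had an unadjusted p under 0.05, and the median difference was -0.17.

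Of 20 tested mitochondrial and metabolic enzymes known as sirtuin substrates, 2 were called higher and 0 lower, or 10% against 8.37% of all tested probes, and the median difference was 0.072. *Sod2*, the manganese superoxide dismutase deacetylated by SIRT3, had a log2 signal of 10.22, 9.91 and 10.74 at 12 months and 8.63, 8.66 and 9.13 at 3 months, a rise of 1.48 (limma SE 0.30, adjusted p = 0.0355). *Hmgcs1*, the cytosolic synthase of the mevalonate pathway, had 10.09, 9.59 and 10.35 against 8.57, 7.71 and 7.51, a rise of 2.08 (limma SE 0.37, adjusted p = 0.0243). In both genes the arrays of the ages were well apart.

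Of the regulators known as sirtuin partners, 12 of 14 were tested. At an adjusted p under 0.05 in limma 3 were called higher and 0 lower, or 25% against 8.37% of all tested probes. Of the 12 genes 9 had a positive difference and 3 a negative one, with a median of 0.34. *Ucp2*, a mitochondrial carrier that lowers insulin secretion and is known as a target repressed by sirtuin activity in beta cells, had the largest rise of the 3 genes called. Its log2 signal was 8.41, 6.997 and 8.91 at 12 months and 4.81, 5.18 and 4.52 at 3 months, a rise of 3.27 (limma SE 0.51, adjusted p = 0.0180), which was 1.93 with normexp. *Hif1a*, the hypoxia-inducible factor whose program SIRT6 represses, had 11.77, 12.55 and 11.79 against 10.005, 10.26 and 10.79, a rise of 1.68 (limma SE 0.34, adjusted p = 0.0335). *Foxo3*, a stress-response transcription factor and deacetylation substrate, had 6.36, 5.81 and 6.04 against 4.90, 5.11 and 4.52, a rise of 1.23 (limma SE 0.28, adjusted p = 0.0440). The *Foxo3* call was lost with normexp, at 0.45 (limma adjusted p = 0.101), and under the 75th percentile shift, at 0.76 (limma adjusted p = 0.204).

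The zinc-dependent histone deacetylases, which remove the same acetyl groups without NAD, had 6 of 11 genes tested, 0 called in limma and 2 with an unadjusted p under 0.05, with a median difference of -0.52. These 2, named after their values were seen, lay in opposite directions. *Hdac3*, the catalytic subunit of the nuclear receptor corepressor complex, differed by 1.71 (limma SE 0.42, adjusted p = 0.0548), and *Hdac11* by -0.73 (limma SE 0.22, adjusted p = 0.0840). The number of calls over all lists, 6 with the full set, changed with the arrays used. Without 12-month replicate 1 or without 3-month replicate 3, 0 of the list genes were called. The count was 1 without 12-month replicate 3 or 3-month replicate 1, 3 without 3-month replicate 2 and 8 without 12-month replicate 2.

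**Figure D4:**
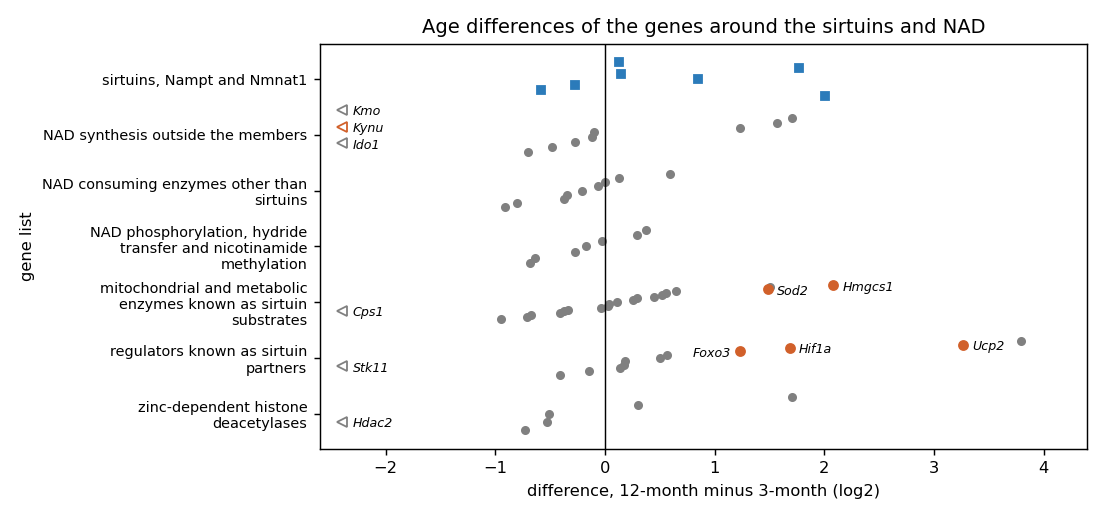
Difference of 12-month minus 3-month log2 signal (x axis) of each tested gene, by list (y axis), with the 7 genes of the group as blue squares, genes at a limma adjusted p under 0.05 in orange with their names, and all others in grey; open triangles at the left edge mark 6 genes well above background on no array of 1 age, by direction only, and vertical scatter within a list has no meaning. The orange circles are *Sod2*, *Hmgcs1*, *Foxo3*, *Hif1a* and *Ucp2*, at 1.23 to 3.27, and the orange triangle is *Kynu*.

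*Nampt* had the smallest p of the group, and the genes with the profile most like its own were sought among 10875 genes with a single kept probe, by the root mean square distance of log2 values centred on their mean over the 6 arrays. The 5 nearest were *Gps2*, *B4galt6*, *Angptl6*, *Fam76a* and *Uimc1*, at distances of 0.26 to 0.27 log2 units. *B4galt6*, which encodes a lactosylceramide synthase, had 11.39, 11.90 and 11.77 at 12 months and 9.98, 9.94 and 8.56 at 3 months. *Gps2*, which encodes a subunit of the corepressor complex that holds HDAC3, had 11.21, 11.41 and 11.15 against 9.53, 10.37 and 8.37. All 5 genes, like *Nampt*, were lowest on 3-month replicate 3, which the measure of likeness itself favours.

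The labelled tissue was checked against markers of islet cells. Markers of beta, alpha and pancreatic polypeptide cells were bright at both ages, as given beside *Nampt*, and so were those of delta cells, with a summed log2 signal of 18.1 to 18.4 at 12 months and 17.8 to 18.1 at 3 months. Acinar markers were also bright, at 20.4 to 21.0 and 20.3 to 20.9, so exocrine RNA was in the samples of both ages. Of the beta cell markers 7 were tested and 2, *Slc2a2* and *Slc30a8*, were called higher in limma at an adjusted p under 0.05. The insulin genes *Ins1* and *Ins2* differed by 0.098 and -0.12 and *Nkx6-1* by -0.22, each with the ages overlapping. Of the 7 differences 5 were positive and 2 negative. The part of the beta cell markers in the differences of the sirtuins and NAD enzymes was not tested.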

How the data were processed

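Total RNA of islets was hybridised to 1-colour Arraystar arrays, 3 for each age, and grouped by the age in the labels. Per the file headers, Agilent Feature Extraction 11.0.1.1 gave the deposited spot intensity, which is background-subtracted but not normalized between arrays, and quality marks for each spot. A table of log2 values from the authors, filtered by a rule that the sources used here do not give, served as an alternative. Precision is limited by the number of arrays.

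Spots marked as outliers were dropped, the remaining log2 intensities of a probe were averaged, and quantile normalization was run over all 24684 probes other than controls. A probe well above background on at least 3 of 6 arrays was kept, which left 17944, of which 17941 could be tested. Saturated probes numbered 0. Age was tested with limma 3.58.1 (lmFit, eBayes, two-sided; R 4.3.3), and p-values were adjusted by Benjamini-Hochberg over these probes. Exact permutation tests used 20 arrangements. RefSeq accessions were matched to GRCr8 symbols for 14294 probes, and a gene with several probes was read by the probe with the highest mean. Named were all genes of the group, list genes with an adjusted p under 0.05, and the 5 genes nearest in profile to the one with the smallest p. Some cell type markers were named outside this rule, whatever their p. Other genes are said to be named after their values were seen. The genes, lists and tests were chosen with earlier results of these data known. Simulated data were used to test the limma fit. Alternatives were a 75th percentile shift, normexp (offset 50, on median signals because no column of mean spot signal was used here), an intensity trend, no filter or a stricter one, the authors' table, the methods' t-test (Student's, unpaired), a replicate block, the 4 arrays with a shared ending of their names, fits without each array, and other thresholds. The study's array lists name a paired t-test, which was not run, since the third 12-month array carries no number in the labels to pair it. Its number here only names it. Counts at the threshold of the study use the limma p. A listed marker is not reported here.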

Additional observations from a re-analysis of the deposited data

How the results depend on the processing

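Leaving out 1 array at a time gave 0 to 0 calls among the 7 genes, 0 to 8 among the list genes and 208 to 2163 among all probes, where the full set gave 0, 6 and 1502. Among the 7 genes 1, *Nampt*, was called with normexp, with an intensity trend, at the threshold of the study and at an adjusted p under 0.1. The list genes gave 1 call with the methods' t-test, 11 at the threshold of the study and 13 at an adjusted p under 0.1. All probes gave 2339 calls without a filter on dim probes, 435 with the t-test, 3953 at the threshold of the study and 3825 at an adjusted p under 0.1. The 4 arrays whose names share an ending gave 0 calls in each of these counts. The replicate block of the numbered pairs also gave 0 calls in each count, and *Nampt* then differed by 1.32 (limma adjusted p = 0.276). Deviations of same-numbered arrays from their group means correlated across probes at -0.01 for pair 1 and -0.31 for pair 2, so same-numbered arrays did not deviate alike. These correlations cannot show whether the arrays were handled as pairs. The differences of *Nampt*, *Nmnat1*, *Sirt3* and *Sirt4* kept their sign in all 15 settings and that of *Sirt6* in all 14 that kept it. *Sirt5* reversed to -0.099 with the 75th percentile shift, and *Sirt7* to -0.032 with the block, -0.058 with the 4 arrays and -0.036 without 12-month replicate 3 (range without 1 array -0.036 to 0.34); the cause was not tested. Of the calls at an adjusted p under 0.05, 63.6% were higher at 12 months, and 46.2% under the 75th percentile shift; at the threshold of the study these shares were 46.0% and 28.2%. The reading of other probes of each gene was not run, since each gene had 1 probe. Dim signal limits *Sirt6*, whose difference ranged from 0.61 to 2.72, and 3 arrays an age limit all tests.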
